A study of Homo sapiens with 2 samples.

Results

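Strong promoter-promoter loops in HCT116 cells were defined as pairs of different anchors with a count of at least 5 summed over both replicates, midpoints up to 2 Mb apart and a promoter on each anchor. A promoter was the transcription start site (TSS) ± 2.5 kb of the canonical transcript of a protein-coding gene. The rule kept 1576 of the 28962 strong pairs of the whole data set, 5.44% (95% exact binomial interval 5.18 to 5.71%). Of these, 1183 joined promoters of different genes. The other 393 had the promoter of 1 gene on both anchors, because a promoter window can reach into neighbouring anchors, and they were kept apart. The pairs were thus selected on the summed count, so counts and their ratios to an expectation are descriptions and carry no test.

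HCT116 cells were first grown from a human colorectal carcinoma, and the libraries came from cells in standard culture, with no treatment named in the labels. HiChIP ligates chromatin fragments that lie close together after MboI digestion and then enriches those that carry a histone mark, here H3K27ac. The study used it to find partners of enhancers, and both samples, replicates 1 and 2, had the same condition, which leaves no comparison of conditions and no test over samples. The labels number the replicates without saying whether they came from separate cultures, so differences between them may be technical only. A paired-end tag count states how many read pairs joined both anchors of a pair. Replicate 1 held 1885481 tags in all and replicate 2 held 2131466, and without molecular identifiers all intervals below cover counting error only.

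H3K27ac marks active enhancers and active promoters, so tags between promoters are enriched where at least 1 side is marked. A tag by itself does not show that either side carries the mark. Promoters of neighbouring active genes are known to come close to each other in the nucleus, in particular in clusters of genes that are transcribed together, such as the replication-dependent histone genes. These intronless genes supply the core and linker histones during S phase. Genes can also share a bidirectional promoter, from which transcription starts in opposite directions.

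Promoter sequences are shown for members that carry the description that follows, namely the strongest histone pair and the pair with the highest count of all pairs at 10 kb or more. The starts of all 5 genes lie inside the joined anchors. Each sequence is the 250 bases before the TSS in GRCh37, read 5′ to 3′ on the strand of the gene. Capitals mark TATAAA (the TATA box), CCAAT (the NF-Y site), GGGCGG (the core of the Sp1 site) and CCGGAAG (a core of ETS sites) on either strand, with overlapping matches run together. The histone pair joined an anchor with H2BC4 and H2AC6 to an anchor with H1-4 and H2BC5. H2BC4 and H2AC6 start 246 bases apart on opposite strands, so the window of H2AC6 at chr6:26124150-26124399 (plus strand) spans the shared promoter of both genes. The windows of H1-4 at chr6:26156307-26156556 and H2BC5 at chr6:26158100-26158349 are also on the plus strand.
H2AC6: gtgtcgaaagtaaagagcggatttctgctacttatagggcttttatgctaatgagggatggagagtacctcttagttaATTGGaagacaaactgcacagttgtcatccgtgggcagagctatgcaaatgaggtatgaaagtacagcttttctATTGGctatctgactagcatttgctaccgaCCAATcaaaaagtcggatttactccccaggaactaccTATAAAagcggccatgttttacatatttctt
H1-4: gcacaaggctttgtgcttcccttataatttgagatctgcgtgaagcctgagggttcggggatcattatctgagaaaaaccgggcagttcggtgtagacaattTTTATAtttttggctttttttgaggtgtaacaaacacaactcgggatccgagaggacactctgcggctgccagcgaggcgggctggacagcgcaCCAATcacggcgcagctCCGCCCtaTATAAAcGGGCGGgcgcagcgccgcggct
H2BC5: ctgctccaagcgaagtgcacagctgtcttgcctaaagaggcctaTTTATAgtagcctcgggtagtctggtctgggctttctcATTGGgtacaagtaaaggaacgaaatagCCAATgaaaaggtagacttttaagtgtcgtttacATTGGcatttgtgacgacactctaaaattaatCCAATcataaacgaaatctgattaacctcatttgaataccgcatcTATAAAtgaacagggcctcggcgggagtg
All 3 windows hold TATAAA and CCAAT, and H1-4 also holds GGGCGG on both strands.

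The pair with the highest count at 10 kb or more joined DDX60L at chr4:169401644-169401893 (minus strand) to PALLD at chr4:169417953-169418202 (plus strand).
DDX60L: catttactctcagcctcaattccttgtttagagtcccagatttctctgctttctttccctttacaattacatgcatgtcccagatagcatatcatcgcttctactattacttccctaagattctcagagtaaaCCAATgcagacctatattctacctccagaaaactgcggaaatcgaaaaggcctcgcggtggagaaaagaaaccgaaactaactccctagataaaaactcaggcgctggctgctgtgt
PALLD: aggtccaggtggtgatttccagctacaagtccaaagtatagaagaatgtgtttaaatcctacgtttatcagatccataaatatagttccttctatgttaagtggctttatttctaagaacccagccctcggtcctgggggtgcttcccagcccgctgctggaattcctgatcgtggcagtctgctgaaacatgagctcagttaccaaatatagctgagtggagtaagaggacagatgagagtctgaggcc
DDX60L holds 1 CCAAT and PALLD none of the 4 motifs.

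Over 300 bases around each start (250 before and 50 after), promoters of the 2087 genes in pairs joining different genes differed little from the 16475 promoters with an anchor and a complete sequence. GGGCGG was in 70.3% of the promoters in pairs, 65.1% of promoters with an anchor and 61.5% of all 19862 protein-coding promoters. CCGGAAG was in 19.2%, 15.6% and 14.2%, CCAAT in 38%, 35.4% and 36.0%, and TATAAA in 7.62%, 8.49% and 9.63%. The palindromic NRF1 site was in 1.58%, 1.85% and 1.70%, and ATTGGCTG, whose opposite strand contains CCAAT, in 6.18%, 5.10% and 4.89%. The median GC content was 65.3%, 64.7% and 63.7%. The 56 histone promoters with an anchor stood apart in composition, with TATAAA in 71.4%, CCAAT in 87.5%, GGGCGG in 21.4% and a median GC content of 43.5%.

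The anchors themselves fit the restriction enzyme, since 250221 of 250222 nuclear anchors began and all ended at GATC, the MboI site, in GRCh37. An anchor was a median of 4.05 kb wide (interquartile range 3.01 to 5.62 kb) among the 1729 anchors in pairs joining different genes, while all 16586 promoter anchors had a median of 3.25 kb. Their depth, the counts of an anchor with all other anchors within 2 Mb, had a median of 24 and 28 in replicates 1 and 2, compared with 12 and 14 for all promoter anchors and 7 and 9 for other anchors. The members therefore came from deep anchors, and the part of depth in their choice was not tested beyond the expectation given below. Of the epithelial markers, the promoter depth of KRT8, KRT18, KRT19 and ELF3 was above the 95th percentile of all promoters with an anchor, that of CDX2 at the 79th, EPCAM at the 47th, LGR5 at the 27th, and CDH1 and VIL1 at the 18th. Promoters of 7 genes of other lineages lay at or below the 53rd percentile, that of PTPRC, so depth at a promoter did not separate all epithelial genes from genes of other lineages.

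The core of the CTCF motif was searched on both strands of the anchors. Both anchors held a match in 8.88% of strong pairs and 3.55% of all possible promoter pairs. An anchor can hold matches on both strands, so 1 pair can count in more than 1 of the arrangements below. Matches that pointed towards each other were on 46 strong pairs (3.89%) and matches that pointed away from each other on 30 (2.54%), compared with 1.07% and 1.07% of all possible promoter pairs. Matches in the same direction were on 3.04% (both to the right) and 3.47% (both to the left), so all 4 arrangements were above the shares of all possible pairs, 1.09% and 1.07% for these. The strong pairs had wider anchors, with a median of 4.19 kb and 3.17 kb, which gives more sequence to match, and the part of width was not tested. At 20 to 100 kb the shares were 5.37% facing and 2.93% away (22 and 12 of 410 pairs), compared with 1.30% and 1.07%. The same-direction shares were 3.41% and 3.90%, compared with 1.22% and 1.26%. At 100 kb or more, 5 of 50 pairs had facing matches and 5 had matches pointing away (10% each), compared with 1.06% and 1.07%. Matches in the same direction were on 10% and 12% of these long pairs, compared with 1.08% and 1.06%. These arrangements overlapped, since only 20% of the long pairs held a match on both anchors, compared with 3.52%. The median width of their anchors was 5.13 kb.

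The strong pairs were short. The median distance between midpoints was 15.8 kb (interquartile range 9.66 to 29.4 kb) for pairs joining different genes and 4.85 kb for pairs sharing a promoter, and 526 of the former (44.5%) joined neighbouring anchors. There were 311 pairs under 10 kb, 412 at 10 to 20 kb, 307 at 20 to 50 kb, 103 at 50 to 100 kb, 35 at 100 to 200 kb, 13 at 200 to 500 kb and 2 beyond 500 kb. The 1576 pairs were 0.44% of all 358036 possible promoter-promoter anchor pairs, and those that joined different genes were 0.332% of 355982. Pairs with a shared promoter reached 19.1% of 2054. Of all possible anchor pairs of any kind within 2 Mb, 0.0567% were strong, with 0.106% of promoter-distal pairs, in which only 1 anchor held a promoter, and 0.047% of distal-distal pairs. These percentages describe the rule and are no test of the members. The other kinds of strong pairs were shorter still, with a median distance of 10.9 kb for promoter-distal and 9.31 kb for distal-distal pairs. At 20 kb or more lay 38.9% of the strong pairs joining different genes, 25.1% of promoter-distal and 17.7% of distal-distal pairs. At 100 kb or more the shares were 4.23%, 4.73% and 3.22%.

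At equal distance, the share of strong pairs was highest for promoters of different genes in each class of the plot of shares by distance. Under 10 kb, 34.8% of possible pairs of different genes were strong, compared with 15.1% of promoter-distal and 6.23% of distal-distal pairs. The shares were 17.8%, 5.96% and 2.34% at 10 to 20 kb, and 3.99%, 1.01% and 0.315% at 20 to 50 kb. At 50 to 100 kb they were 0.804%, 0.199% and 0.0576%, and at 100 to 200 kb 0.149%, 0.0546% and 0.0171%. Long pairs of all kinds were rare, with 0.0209%, 0.0113% and 0.00306% at 200 to 500 kb and 0.000811%, 0.000454% and 0.000146% beyond.

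**Figure D1:**
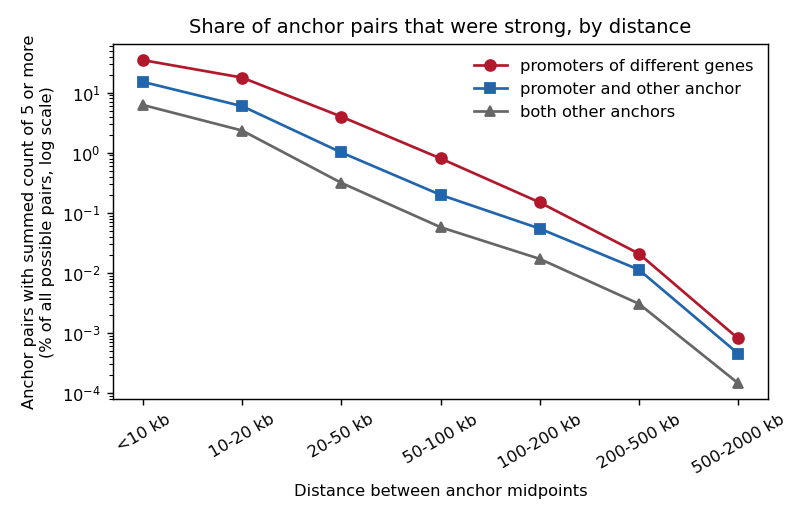
Share of all possible anchor pairs with a summed count of at least 5 (y axis, %, log scale) by distance between midpoints (x axis, kb), for promoters of different genes (circles), a promoter with another anchor (squares) and other anchors (triangles). The circles lie above the squares and the squares above the triangles in every class, from 34.8%, 15.1% and 6.23% under 10 kb downward.

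The expected count was computed from distance and the depth of both anchors in each replicate. For the totals in this paragraph it was fitted to these same counts, with the tags of each pair included. Such a fit draws ratios towards 1, so the part of depth in the order above was not tested. When all possible pairs of different genes were added up, including those without counts, the observed total at 10 to 20 kb was 2757 in replicate 1 and 3301 in replicate 2, which was 2.61 and 2.73 times the total expected from distance alone. With anchor depth in the expectation, the same ratios were 1.07 and 1.09. At 20 to 50 kb the ratios with depth were 1.08 and 1.12, at 50 to 100 kb 1.17 and 1.11, and at 100 to 200 kb 1.10 and 1.16. For promoter-distal pairs they were 1.02 and 1.01, 1.05 and 1.04, and 1.03 and 1.03 in the same 3 classes, and for distal-distal pairs they lay between 0.98 and 1.00. At 200 to 500 kb the ratio for promoter pairs was 1.05 in each replicate. Thus, both replicates gave promoter pairs a total slightly above the expectation from distance and depth between 10 and 500 kb. Beyond 500 kb the ratio was 0.88 and 0.89 for promoter pairs, 0.90 and 0.90 for promoter-distal pairs and 1.02 and 1.02 for distal-distal pairs.

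Among the 1183 pairs joining different genes, the ratio of observed to expected count, with the count of the pair left out of the depth, had a median of 1.70 (interquartile range 1.14 to 2.59). The median was 1.75 for strong promoter-distal and 1.85 for strong distal-distal pairs. Ratios of single pairs are given below with their 95% exact Poisson interval, which covers counting error only. The same counts chose the pairs, so an interval above the expected count is no test. The median ratio was 1.20 under 10 kb, 1.59 at 10 to 20 kb, 2.07 at 20 to 50 kb, 2.92 at 50 to 100 kb and 3.43 at 100 to 200 kb. The expected count falls with distance, so a minimum count of 5 favours high ratios at long distances. Low ratios could still pass, such as 1.26 for PPP6R1 and ZNF628 at 225 kb. The part of the rule in this rise was not tested. Just inside the threshold, 389 pairs had a summed count of 5, a median distance of 22.3 kb and a median ratio of 1.96. Just outside it, 728 pairs had a sum of 4, a median distance of 29.4 kb and a median ratio of 2.08.

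Of the 1183 pairs, 1141 had counts in both replicates, 10 only in replicate 1 and 32 only in replicate 2. Their counts added up to 4056 and 4933, a ratio of 1.22 between replicates, compared with 1.15 for all pairs within 2 Mb. The median count was 3 in replicate 1 and 4 in replicate 2, 126 pairs had at least 5 in each, 214 had a sum of at least 10, and 22 of at least 20. To read a replicate that the choice had not used, pairs with at least 5 counts in replicate 1 alone were looked up in replicate 2, where 250 of 260 (96.2%, 95% exact binomial interval 93.0 to 98.1%) had counts. The share was 93.7% (92.1 to 95%, n = 1153) for promoter-distal and 92.0% (91.0 to 92.8%, n = 3505) for distal-distal pairs. At 20 kb or more it was 86.7% (75.4 to 94.1%, n = 60), 91.7% (87.2 to 95%, n = 217) and 92.6% (90.2 to 94.5%, n = 619), and with the replicates exchanged 90.2%, 87.7% and 88.4%. The order of the 3 kinds at these distances thus depended on the replicate that chose the pairs. The 260 pairs had 1348 counts in replicate 2, 1.13 times the total expected with the tags of each pair left out of the depths and 1.11 times with them kept. At 20 kb or more the 238 counts were 1.42 and 1.34 times the expected totals. The same 2 ratios at 20 kb or more were 1.40 and 1.37 for promoter-distal and 1.22 and 1.21 for distal-distal pairs. At all distances they were 1.06 and 1.07 for promoter-distal and 0.97 and 1.00 for distal-distal pairs.

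The strongest pairs at 10 kb or more joined neighbouring genes with no other TSS between them. DDX60L, a relative of an antiviral helicase, and PALLD, which encodes the actin-binding protein palladin, shared 19 counts in replicate 1 and 19 in replicate 2 at 11.9 kb. This highest count at 10 kb or more was below the expected count of 55.6, a ratio of 0.68 (0.48 to 0.94), and the anchor of DDX60L was 14.4 kb wide. CLDND1 and GPR15, a receptor that guides lymphocytes to the colon, shared 14 and 20 counts at 21.9 kb, with a ratio of 1.27 (0.88 to 1.77).

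CUEDC1 and the zinc finger gene VEZF1 shared 11 and 18 counts at 39.6 kb, a ratio of 1.63 (1.09 to 2.34), the highest count among genes in the same direction. FOSL1, which encodes the AP-1 subunit FRA-1, and the anchor of C11orf68 and DRAP1, a transcriptional corepressor, shared 15 and 12 counts at 10.9 kb. A neighbouring anchor of the FOSL1 promoter shared 11 and 8 counts with the same partner at 14.3 kb, with a ratio of 2.27 (1.37 to 3.54). The starts of C11orf68 and DRAP1 lie outside this partner, which only reaches the edge of their promoter windows, and the start of FOSL1 lies in the second of its anchors.

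POLD4, a small subunit of DNA polymerase delta, and the cytokine gene CLCF1 shared 10 and 15 counts at 18.8 kb, a ratio of 2.80 (1.81 to 4.14). The anchor of CHMP2A and UBE2M and that of MZF1 shared 9 and 16 counts, and CCDC57 and SLC16A3, the lactate exporter, 13 and 11. LAMTOR1, a Ragulator subunit, with TOMT on its anchor, and ANAPC15, a subunit of the anaphase-promoting complex, shared 9 and 13 counts at 10.4 kb. None of these 3 ratios was above 1.83.

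COL17A1, a hemidesmosomal collagen, and the recombination factor gene SFR1 shared 12 and 9 counts at 33.6 kb, and the anchor of SH3YL1 and the phosphatase gene ACP1 shared 11 and 9 with ALKAL2, a ligand of the receptor ALK. In the plot of the strongest pairs, the replicates ranked these pairs differently, and the expected counts spread as widely as the observed ones. Under 10 kb, XAB2 and PET100 shared 12 and 15 counts with PCP2 and STXBP2 at 7.04 kb, a pair added after its values were seen.

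**Figure D2:**
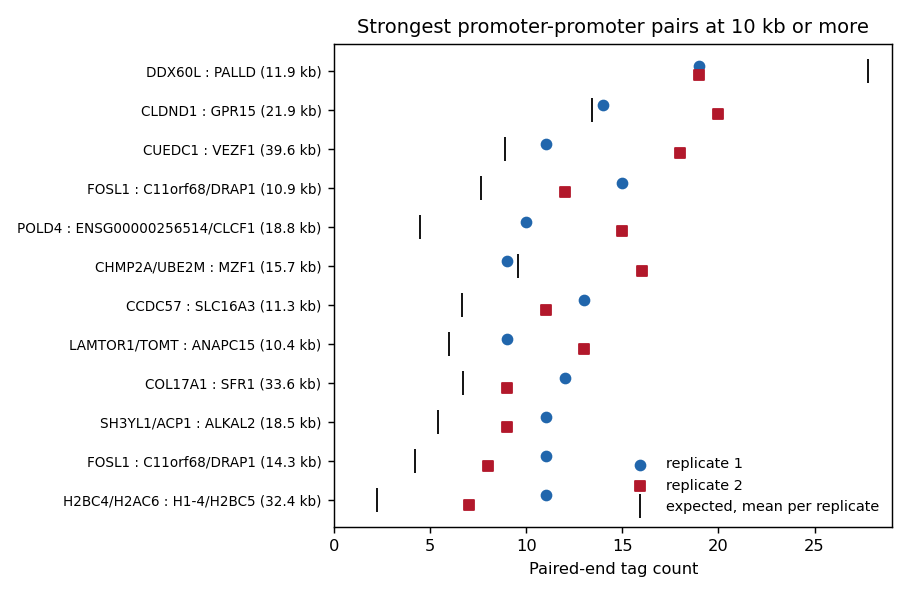
Paired-end tag counts (x axis) of the 12 strongest pairs at 10 kb or more (y axis, with distance between midpoints), as circles for replicate 1, squares for replicate 2 and vertical bars for the mean expected count per replicate. The bar of DDX60L and PALLD lies above both of its counts of 19, whereas the bar of the histone pair lies below its counts of 11 and 7.

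A count of at least 5 in both replicates at 20 kb or more was reached by 18 pairs. These included TNFRSF1A, a receptor of tumor necrosis factor, with SCNN1A, the alpha subunit of the epithelial sodium channel, at 5 and 8 counts and 27.3 kb. RRAS and SCAF1 shared 8 and 9 counts with IRF3 and BCL2L12 at 24.6 kb, and the anchor of ATG12 and AP3S1 shared 7 and 6 counts with ARL14EPL at 195 kb, which made it the longest of the 18. Their ratios were 2.33, 2.38 and 2.94. The 18 pairs are given after their values were seen.

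Long pairs had few counts. The 50 pairs at 100 kb or more were 4.23% of those joining different genes. The longest joined histone anchors at 705 kb, with H2BC11, H2AC11 and H4C9 on one side and H2AC15 and H2BC15 on the other, by 2 and 4 counts, a ratio of 16.5 (6.04 to 35.8). FAM76B and CEP57 were joined to CCDC82 and JRKL at 598 kb by 4 and 1 counts, and FEM1C to ARL14EPL at 494 kb by 3 and 3.

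BCL9L, a coactivator of beta-catenin, and RNF26 shared 4 and 2 counts at 415 kb across 19 other start sites, the most of any pair, with a ratio of 2.64 (0.97 to 5.74). DNAH6 and TMSB10 (389 kb), CCNB1IP1 and RNASE4 (351 kb), TES and CAV1 (310 kb), and SYT17 and TMC5 (255 kb) each had 2 and 3 counts, and TROAP and MCRS1 (246 kb) had 1 and 4. CAV1 encodes caveolin, and its promoter was also paired with that of CAV2 at 22.8 kb by 2 and 7 counts. The tenth longest pair, FAM86B1 and FAM86B2 at 244 kb with 2 and 3 counts, joined anchors that shared 64.8% of the 31-base sequences of the smaller one, so that reads of the copies could be exchanged and the pair is uncertain.

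Among the highest ratios at 20 kb or more were those of FAM86B1 and FAM86B2 with 29.4 (9.55 to 68.7), then DNAH6 and TMSB10 with 22.2 (7.21 to 51.9), the longest histone pair with 16.5, FAM76B and CEP57 with CCDC82 and JRKL with 16.4, and SYT17 and TMC5 with 14.2. The intervals of these ratios overlapped over most of their range, so their order was not resolved. Sequence copies were rare among the members in general, since 870 pairs (73.5%) shared no 31-base sequence and 25 shared at least 1%. Besides FAM86B1 and FAM86B2, only KLRC3 and KLRC2 shared over 10%, with 48.3%.

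No other TSS lay between the promoter windows of 865 pairs (73.1%). At 10 to 20 kb this held for 88.6% of the strong pairs and 84.8% of all possible pairs of different genes, at 20 to 50 kb for 54.1% and 54.4%, at 50 to 100 kb for 21.4% and 28.9%, and at 100 to 200 kb for 5.71% and 12.1% (2 of 35 strong pairs). At least 5 start sites were passed over by 26 pairs.

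Orientation was read for the 701 pairs with 1 gene on each anchor. Genes in the same direction made up 375 pairs (53.5%, 95% exact binomial interval 49.7 to 57.2%), genes transcribed away from each other (head to head) 238 (34.0%, 30.4 to 37.6%), and genes transcribed towards each other (tail to tail) 88 (12.6%, 10.2 to 15.2%). All possible pairs, weighted to the same distances, had 51.9%, 34.6% and 13.5%, each within the interval of the strong pairs. Under 10 kb, 32.3% of possible head-to-head pairs were strong, 31.8% of those in the same direction and 35.2% of those tail to tail, and at 10 to 20 kb 14.2%, 14.5% and 13.5%. At 20 to 50 kb the shares were 3.02%, 3.18% and 2.62%, and at 50 to 100 kb 0.404%, 0.75% and 0.596%. No order of the 3 orientations held in all 4 classes.

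Head-to-head pairs had the shortest median distance, 11.8 kb, compared with 16.8 kb in the same direction and 18.9 kb tail to tail. Among all possible pairs the head-to-head share also fell with distance, from 45.3% under 10 kb to 26.2% at 20 to 50 kb. At 50 to 100 kb, 9 of 60 strong pairs (15.0%, 7.10 to 26.6%) were head to head and 23.6% of all possible pairs, while 39 (65.0%, 51.6 to 76.9%) and 55.1% were in the same direction. The strongest head-to-head pair at 10 kb or more was DDX60L and PALLD, and the strongest in the same direction CUEDC1 and VEZF1. Tail to tail, it was MSLN, which encodes the surface protein mesothelin, and MSLNL, with 9 and 8 counts at 12 kb and a ratio of 1.84 (1.07 to 2.94).

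**Figure D3:**
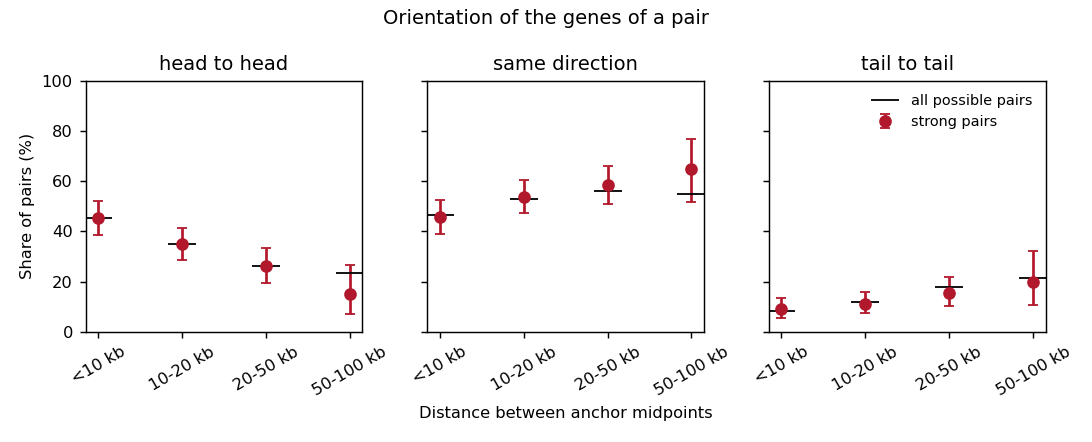
Share of each orientation (y axis, %) by distance between midpoints (x axis) for strong pairs with 1 gene on each anchor (circles, bars are 95% exact binomial intervals) and all possible pairs (dashes). The dashes lie within the bars in all 12 positions, and head-to-head pairs fell from 45.3% under 10 kb to 15.0% at 50 to 100 kb.

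The 1183 anchor pairs stood for 1886 combinations of genes, because 352 of the 1729 anchors (20.4%) held at least 2 genes, compared with 11% of all promoter anchors. Of these combinations, 63 were joined by more than 1 anchor pair. A TSS itself lay inside both anchors of 893 pairs (75.5%), inside 1 anchor of 259 (21.9%) and inside neither of 31 (2.62%), where only the windows around the starts reached the anchors. For example, the starts of GPR15, POLD4 and MSLNL lay outside their anchors, as did those of S100A6 and KRT18 in pairs described below. The anchors held 2087 of the 16476 genes with an anchor at their promoter (12.7%).

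Genes whose symbols share the letters before the first digit were taken as a family, which is a naming rule and no measure of descent. Placeholder symbols such as FAM and TMEM kept their number, and a symbol without a number stood alone. There were 97 such pairs (8.20%), 1.06% of 9111 possible family pairs. All possible pairs weighted to the same distances had 13.7%. Family pairs were the smaller share of strong pairs under 10 kb (6.75% and 14.3% of all possible pairs), at 10 to 20 kb (8.25% and 15.2%) and at 20 to 50 kb (10.4% and 13.6%). Depth differed between families, with a median of 12 and 14 in replicates 1 and 2 for all promoter anchors. Anchors of ZNF genes had 9 and 11 and those of the clustered protocadherins 5.5 and 6.5. Above all promoter anchors lay those of histone (20 and 24.5), S100 (18 and 21), HOX (17 and 22) and keratin genes (14 and 18). The depth of all family anchors together was not computed, and its part was not tested.

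Histone genes formed the largest family, with 25 pairs that had histone genes on both anchors. At least 1 pair held 40 of 56 histone genes (71.4%), compared with 12.7% of all genes with an anchor. The 25 pairs were 5.94% of 421 possible histone pairs up to 2 Mb apart (0.332% of all possible pairs of different genes). Within 100 kb, 24 of 120 possible histone pairs (20.0%) were strong, and all possible promoter pairs at the same distances gave 7.49%. Their median anchor depth was 20 and 24.5, also above that of all promoter anchors. Of the 25 pairs, 24 had counts in both replicates, the counts added up to 82 and 116, and 12 pairs had a ratio above 2. Among all 1183 pairs joining different genes, 446 (37.7%) had a ratio above 2. The median ratio was 1.74 for the histone pairs, near the 1.70 of all these pairs. Only 4 shared at least 1% of 31-base sequences, at most 5.64% (H4C11 with H4C12).

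The 19 pairs of the proximal histone group lay within 269 kb on chromosome 6. The anchor of H2BC4 and H2AC6, shown above, took part in 7 pairs, more than any other promoter anchor. Its partners were H1-4 with H2BC5 (11 and 7 counts, 32.4 kb, ratio 4.04, 2.40 to 6.39), H2BC3 with H3C3 (4 and 3, 82.4 kb), H3C2 with H2AC4 (3 and 3, 93.6 kb), H4C5 (3 and 3, 79.6 kb), H1-2 (1 and 5, 71.2 kb), H4C3 (1 and 5, 22.2 kb) and HFE (0 and 5, 35.9 kb). HFE, an iron-regulating gene within the cluster, is no histone gene and had no count in replicate 1. The ratio was 5.58 (2.24 to 11.5) for H2BC3 with H3C3 and 0.85 (0.31 to 1.86) for the nearer H4C3.

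H1-2, a linker histone gene, had 5 partners, among them H4C3 with 6 and 6 counts at 49.0 kb and a ratio of 5.16 (2.66 to 9.01). H3C2 with H2AC4 also had 5, among them H1-2 with 7 and 5 counts at 22.4 kb. Farther along, H4C4 and H3C4 shared 5 and 4 counts at 6.69 kb and H4C5 and H1-3 2 and 4 at 27 kb. The plot of the histone pairs shows that the arcs did not simply join neighbours, since several passed over other histone promoters. The distal group had 6 pairs, among them the longest of all members.

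**Figure D4:**
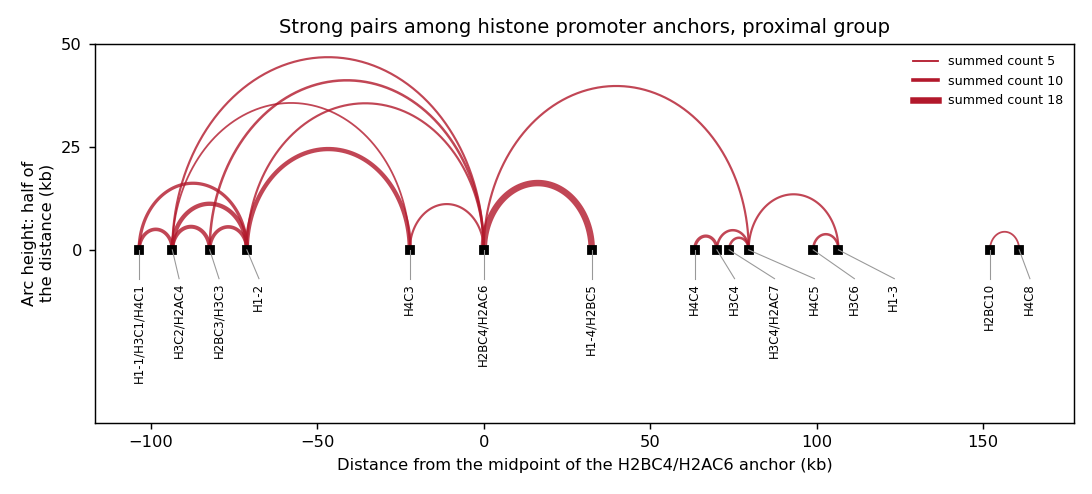
Strong pairs (arcs) among 15 anchors with histone promoters (squares) of the proximal group, placed by distance from the midpoint of the H2BC4 and H2AC6 anchor (x axis, kb). Arc height grows with the distance between anchors (y axis) and line width is proportional to the summed count, from 5 to 18. The widest arc joins H2BC4/H2AC6 to H1-4/H2BC5 at 32.4 kb.

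S100 genes encode small calcium-binding proteins and had 11 of 18 genes in pairs (61.1%), compared with 12.7% of all genes with an anchor. The 8 pairs within the family were 8.99% of 89 possible ones (0.332% of all possible pairs of different genes). S100A6 with S100A5 shared 12 and 12 counts with S100A4 and S100A3 at 7.88 kb, a ratio of 1.19 (0.77 to 1.78), and 5 and 7 with S100A2 at 26.7 kb, a ratio of 2.09. Within 100 kb, 23.5% of 34 possible S100 pairs were strong (5.55% of all possible pairs at the same distances), at a median depth of 18 and 21. S100A10 and S100A11 shared 6 and 1 counts at 40.9 kb.

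HOX genes specify position along the body axis, and in pairs joining different genes only HOXA and HOXB genes appeared, in 3 and 7 pairs. Together these were 7.58% of 132 possible HOX pairs (0.332% of all possible pairs of different genes). HOXB4 and HOXB3 shared 6 and 10 counts at 8.86 kb, a ratio of 0.84 (0.48 to 1.37), and HOXB6 shared 5 and 8 with HOXB7 and HOXB8. In all, 11 of 34 HOX genes (32.4%) were in pairs, compared with 12.7% of all genes with an anchor. Of possible HOX pairs within 100 kb, 8.26% were strong, near the 7.25% of all possible pairs at the same distances. Replicate 2 gave more counts than replicate 1, 54 and 24 over the 10 pairs, and HOXA6 with HOXA9 and HOXA10 had 0 and 7.

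Keratin genes had 4 pairs among themselves, 0.41% of the possible ones, near the 0.332% of all possible pairs of different genes. KRT8 and KRT18, the head-to-head partner keratins of simple epithelia, shared 4 and 6 counts at 37.0 kb, a ratio of 2.49 (1.19 to 4.58). KRT5 and KRT71 with KRT74 shared 1 and 6 at 47.2 kb, KRT71 with KRT74 and KRT72 3 and 4, and KRT37 and KRT38 2 and 3. For keratins, 1.81% of the possible pairs within 100 kb were strong, below the 4.66% at the same distances. Kallikreins, a family of secreted proteases, had 5 pairs, led by KLK1 and KLK15 with 7 and 6 counts at 11.4 kb. Their possible pairs were not counted, so these 5 show no enrichment. The Polycomb genes CBX2 and CBX8 shared 3 and 5 counts at 21.7 kb.

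ZNF genes were in pairs at about the rate of all genes, 41 of 369 (11.1%), and 5 pairs had ZNF genes on both anchors, 0.261% of 1915 possible ones, near the 0.332% of all possible pairs of different genes. Within 100 kb, 1.67% of 300 possible ZNF pairs were strong, compared with 4.31% at the same distances. The strongest of these joined FIZ1 and ZNF524 to ZNF865 with 8 and 2 counts at 4.56 kb. No clustered protocadherin (0 of 39 genes), metallothionein (0 of 9) or IFITM gene (0 of 5) was in a pair joining different genes, and no gene of the WNT target list (0 of 13), while 12.7% of all genes were. For lists as short as the last 3, a count of 0 is near that share. Of pairs within 100 kb with list genes on both anchors, 0 of 155 were strong for protocadherins, 0 of 41 for metallothioneins and 0 of 9 for IFITM genes, compared with 7.06%, 10.3% and 25.7% of all possible pairs at the same distances. The HLA genes had no anchor at their promoter in these tables and were not analysed here.

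Ribosomal protein genes were often in pairs, 33 of 79 (41.8%), but with other genes. Of their 51 pairs, 1 had ribosomal protein genes on both anchors. Only 3 such pairs were possible within 100 kb, so this count shows no preference for other genes. Within 100 kb, 15.3% of 321 possible pairs with such a gene were strong (7.24% of all possible pairs at the same distances), at a median depth of 16.5 and 21. RPL41 with ZC3H10 shared 10 and 6 counts with PA2G4 and 9 and 7 with ESYT1, RPL22 shared 3 and 12 with RNF207, and SPG7 and RPL13 shared 9 and 4 at 54.7 kb.

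Other housekeeping lists lay nearer to all genes. Of the mitochondrial ribosomal protein genes, 12 of 73 (16.4%) were in pairs, the strongest being MRPL43 and TWNK with LZTS2 (7 and 9 counts, 10.4 kb). Of the respiratory chain genes 10 of 60 (16.7%) were in pairs, led by NDUFB10 with RPS2 and RNF151 (4 and 4 counts), and of the proteasome genes 3 of 45 (6.67%), led by BECN1 and PSME3 (9 and 6 counts). All protein-coding genes gave 12.7%.

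Among lists of regulators, FOSL1 and JUNB were the members of 9 AP-1 genes (22.2%) and PLK3 and BAX of 15 p53 targets (13.3%). KRT8, KRT18 and CLDN7 were those of 11 epithelial genes (27.3%), and all protein-coding genes gave 12.7%. These shares rest on 2 or 3 genes each. Pairs with an AP-1 gene were strong in 8 of 49 cases within 100 kb (16.3%, 5.78% at the same distances). All 8 held FOSL1, which entered through 2 anchors, or JUNB. The anchors of AP-1 genes had a median depth of 37.5 and 46. For p53 targets, 4 of 50 such pairs were strong (6.24% at the same distances), and for epithelial genes 4 of 49 (8.16%, 4.42% at the same distances). PLK3 shared 5 and 9 counts with DYNLT4 and BTBD19, and CLDN7, a tight junction protein gene, 8 and 6 with CTDNEP1 and ELP5 at 9.56 kb, a ratio of 2.60 (1.42 to 4.36).

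**Figure D5:**
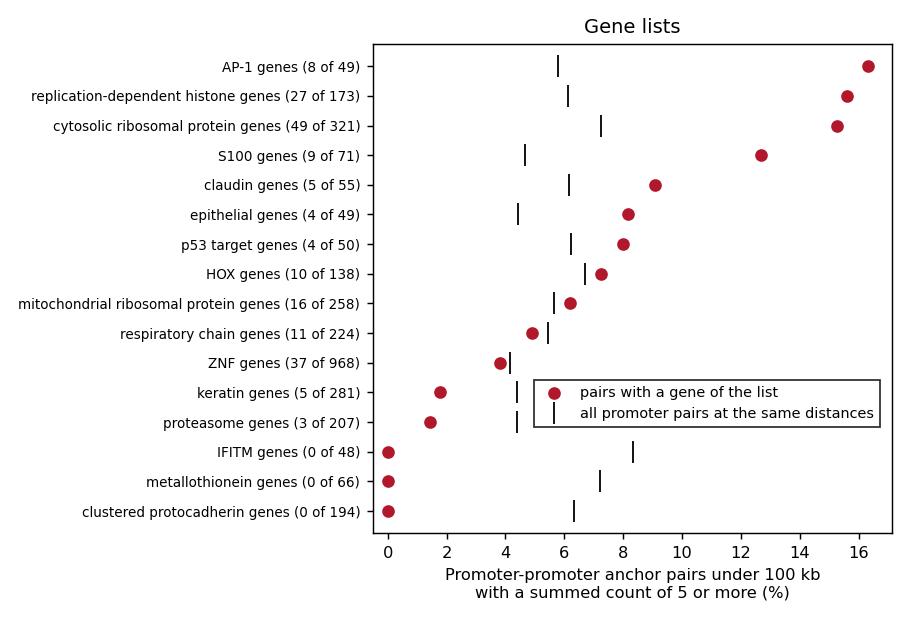
Share of possible promoter-promoter pairs under 100 kb with a gene of the list on at least 1 anchor that were strong (circles; x axis, %), beside the share over all possible pairs at the same distances (bars), for lists with at least 40 possible pairs (y axis, with strong and possible pairs). AP-1 (16.3%), histone (15.6%) and ribosomal protein genes (15.3%) lie highest, and protocadherin, metallothionein and IFITM genes lie at 0. The AP-1 value rests on 8 strong pairs of 2 genes.

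Of the genes the study named, ITGB4, GALK1, RECQL4, MSLN and GDF15 were looked up, and all but GDF15 were in strong promoter pairs. Of all genes with an anchor, 12.7% were. The anchors of the 5 genes had a median depth of 34 and 49, compared with 12 and 14 for all promoter anchors. RECQL4 lies in the gained part of 8q and ITGB4 and GALK1 in that of 17q, both described below. The study linked these genes to enhancers, which promoter pairs do not address. Besides MSLN and MSLNL, the anchor of GPT and MFSD3 shared 6 and 5 counts with that of RECQL4, a DNA helicase gene, and LRRC14 at 11.3 kb. GALK1, the galactokinase gene, shared 4 and 6 counts with H3-3B and UNK at 19.8 kb, a ratio of 0.80 (0.38 to 1.46), and 2 and 5 with SMIM5 and SMIM6 at 125 kb, a ratio of 2.61 (1.05 to 5.38). ITGB4, the integrin beta 4 gene, shared 3 and 3 counts with RECQL5 and SAP30BP at 56.6 kb, a ratio of 4.35 (1.60 to 9.47).

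Pairs that shared anchors formed 631 groups, of which 438 were single pairs, 193 had at least 3 anchors and 54 at least 5. In 77 cases 3 anchors were all joined to each other. The largest group had 16 anchors and 22 pairs within 303 kb of chromosome 17, from NPLOC4 to MYADML2, with 70 and 103 counts. The histone group on chromosome 6 came next with 14 anchors, 19 pairs and 8 of the triangles. A group of 14 anchors on chromosome 19 held PPP6R1.

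Of the 1729 anchors, 428 were in at least 2 pairs and 17 in at least 5. After H2BC4 with H2AC6, 3 anchors had 6 pairs. The anchor of ZFTRAF1, TMEM276 and KIFC2 on chromosome 8 reached partners at 13.7 to 46.0 kb, and that of FIBP and CCDC85B on chromosome 11 at 9.61 to 28.2 kb, among them both FOSL1 anchors. The anchor of PPP6R1 was 35.9 kb wide, the widest of all promoter anchors, and its partners lay at 22.1 to 225 kb. The anchors of ZBTB7B, H3C2 with H2AC4, H1-2, and RNF208 with CYSRT1, RNF224 and SLC34A3 had 5 pairs each. Depth was high at all 8 anchors, 43 to 80 in replicate 1 and 53 to 86 in replicate 2, and ratios of their single pairs ran from 0.68 to 5.58.

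Chromosomes 19 and 17 held the most pairs, 176 and 175, and 25.4% and 26.3% of their genes with an anchor were in pairs. Under 100 kb, the share of possible pairs that were strong was 10.5% on chromosome 8, 7.53% on chromosome 17 and 6.01% on chromosome 19, compared with 1.81% on chromosome X. HCT116 carries extra copies of parts of 8q, 10q and 17q. In 8q beyond 66 Mb, 13.6% of possible pairs under 100 kb were strong, in 10q beyond 97 Mb 7.34%, and in 17q beyond 38 Mb 8.24%, compared with 4.34% elsewhere. The median depth of promoter anchors was 23 and 26.5, 19 and 22, and 21 and 24 in these segments and 12 and 14 elsewhere, so that more copies and more contacts per copy cannot be told apart. The median ratio of the strong pairs was 1.54, 1.74 and 1.76 in the segments and 1.70 elsewhere.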

How the data were processed

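The authors digested chromatin with MboI, enriched it for H3K27ac, processed reads with HiC-Pro on hg19 (per the submitters' processing notes) and called interactions with hichipper, whose version and anchor settings are not given in the sources used here. They deposited, for each replicate, raw counts of paired-end tags per anchor pair, without normalization. Members and gene lists were chosen with earlier results of these data known.

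Here, counts of both replicates were summed per anchor pair, positions counted from 1, and promoters were taken from GENCODE release 44 on GRCh37. The expected count used 60 log-scaled distance classes, anchor weights balanced in 20 rounds and an offset of 0.5. The script was tested on simulated data. All possible anchor pairs within 2 Mb, with or without counts, gave the background. The pairs named were the 12 highest sums at 10 kb or more, the 10 longest, the 6 highest ratios at 20 kb or more, those of the 8 anchors in most pairs, the strongest of each list and orientation, and genes the study named. A few pairs that this rule names are not reported here. Any gene or pair beyond these, such as further pairs of families, was chosen after its values were seen. Kinase and binding protein genes whose symbols begin with RPS were left out of the ribosomal list. Alternatives varied the minimum count, promoter width, transcripts, distance, family definition, expectation and replicate. Counts per library limit precision, since most members had 5 to 9 tags. Scripts ran in Python 3.11.15 with pysam 0.24.0, numba 0.67.0, scipy 1.17.1, networkx 3.6.1, pandas 2.3.3, matplotlib 3.10.9 and numpy 2.4.6.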

Additional observations from a re-analysis of the deposited data

How the results depend on the processing

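The number of strong promoter pairs depended on the minimum sum, with 2475 pairs at 4, 1057 at 6 and 279 at 10 in place of 1576, and on the promoter, with 3134 pairs at 5 kb on each side and 3036 with all protein-coding transcripts. Pairs joining different genes numbered 1911, 794 and 214 at sums of 4, 6 and 10, and 657 with another anchor between, but 1034 to 1342 under other promoter definitions. With the same minimum of 5 in a single replicate, 361 to 524 promoter pairs and 260 to 414 pairs joining different genes were left.

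The median distance was 19.7, 14.1 and 11.2 kb at sums of 4, 6 and 10, 18.3 kb with promoters of 5 kb, 10.9 kb between inner edges, 26.3 kb with another anchor between (added after seeing the data), and 11.8 to 13.4 kb in single replicates. The head-to-head share was 37.4% and 38.7% at sums of 6 and 10, 30.3% with promoters of 5 kb, 29.3% with the nearest gene of each anchor and 37.4 to 40.4% in single replicates. The share in the same direction was 51.8%, 51.7% and 52.1% at sums of 4, 6 and 10, 51.6% and 56.4% with promoters of 1 and 5 kb, 55.9% with the nearest gene and 51.4 to 51.8% in single replicates. The tail-to-tail share was 15.9% and 9.24% at sums of 4 and 10, 14.8% with the nearest gene and 8.22 to 10.8% in single replicates. The family share was 7.74%, 8.69% and 9.81% at sums of 4, 6 and 10, 4.40% with fixed lists, and 9.23 to 9.42% in single replicates. Added after seeing the data, it was 7.93% and 8.85% with promoters of 1 and 5 kb and 7.69% without pairs sharing sequence.

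The median ratio to the expected count was 8.51 from distance alone, 1.51 when the tags of a pair also entered its anchor depths and 1.81 to 1.93 in single replicates. The share found in replicate 2 was 81.8% at a minimum of 3 and 100% at 8 (52 pairs), and 92.3% with the replicates exchanged. Without the gained segments (added after seeing the data), 970 pairs joined different genes, with a median of 15.3 kb. No paired analysis was possible because all samples belong to 1 group. Depth limits single pairs, since a sum of 5 leaves wide Poisson intervals. Of promoter pairs over 2 Mb apart, 0 reached a sum of 5, and 3 pairs of any kind did.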
